A study of Mus musculus with 24 samples.

Results

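10 genes of autophagy and the lysosome were followed through the day in young and old mouse liver: Tfeb, Tfe3, Ulk1, Atg14, Map1lc3b, Gabarapl1, Sqstm1, Bnip3, Lamp1 and Ctsl. They were taken as the rows of the deposited gene tables that carry these names, and all 10 were found among the 43629 genes listed. Liver mRNA came from C57BL/6 mice, an inbred laboratory strain, all of wild-type genotype and with no treatment named in the labels. Young mice were about 4 months old and old mice about 19 months. Livers of each age were collected every 4 h from ZT2 to ZT22, that is at 6 zeitgeber times (ZT, hours counted from lights on), with 2 replicate libraries at each, which gave 12 libraries per age and 24 in all. The labels used here do not give the sex, the light schedule, whether replicates were separate animals or what the replicate number marks, although the design text speaks of collection over 2 days, so p-values measure the spread between these libraries, which may be technical.

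Macroautophagy encloses cytoplasm in a double membrane, the autophagosome, and delivers it to the lysosome for digestion. The ULK1 kinase complex starts the process, a lipid kinase complex containing ATG14 marks the forming membrane, ATG8 proteins such as LC3B and GABARAPL1 are attached to it, and receptors such as p62 (Sqstm1) and BNIP3 tie cargo to them. TFEB and TFE3 are transcription factors that switch on many genes of the pathway when nutrient signalling through mTORC1 is low, and liver autophagy is known to follow feeding and the circadian clock.

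Sequences upstream of the genes are given first, because the E-box core CACGTG is bound by factors of the circadian clock as well as by TFEB and TFE3. RefSeq promoter windows (build GRCm38.p6) that run from 250 bases before to 50 bases after each start site held 13 windows for the 10 genes. The core reads the same on both strands. It was found in 4 of the 13 windows, each of a different gene, beside 7.15% of the 32851 windows in the table. Lamp1, which encodes a major lysosomal membrane protein, had 4 matches, and 0.0244% of all windows (8 windows) had that many. Below, the bases before the start are written 5′ to 3′ on the gene's strand, with each CACGTG in capitals. Lamp1 is shown for its 4 matches, Bnip3 and Atg14 for 1 match in genes with a strong daily rhythm, and Gabarapl1 because it had the largest rhythm of the 10 genes and no match.
Lamp1, chr8:13158911-13159160, plus strand: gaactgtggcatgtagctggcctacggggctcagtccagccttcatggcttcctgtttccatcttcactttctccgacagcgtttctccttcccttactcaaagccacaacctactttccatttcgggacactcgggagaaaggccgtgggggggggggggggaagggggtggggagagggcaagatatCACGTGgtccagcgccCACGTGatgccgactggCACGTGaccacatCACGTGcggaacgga
Bnip3, chr7:138909507-138909756, minus strand: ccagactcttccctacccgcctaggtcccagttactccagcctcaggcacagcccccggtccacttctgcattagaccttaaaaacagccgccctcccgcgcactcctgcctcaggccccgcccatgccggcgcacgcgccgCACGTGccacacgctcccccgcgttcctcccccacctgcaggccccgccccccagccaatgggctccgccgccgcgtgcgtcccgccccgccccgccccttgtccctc
Atg14, chr14:47568430-47568684, minus strand: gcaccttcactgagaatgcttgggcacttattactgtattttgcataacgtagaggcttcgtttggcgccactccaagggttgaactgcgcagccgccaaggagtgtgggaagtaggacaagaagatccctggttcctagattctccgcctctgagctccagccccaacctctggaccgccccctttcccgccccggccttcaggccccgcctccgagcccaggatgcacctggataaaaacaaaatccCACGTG
Gabarapl1, chr6:129532942-129533191, plus strand: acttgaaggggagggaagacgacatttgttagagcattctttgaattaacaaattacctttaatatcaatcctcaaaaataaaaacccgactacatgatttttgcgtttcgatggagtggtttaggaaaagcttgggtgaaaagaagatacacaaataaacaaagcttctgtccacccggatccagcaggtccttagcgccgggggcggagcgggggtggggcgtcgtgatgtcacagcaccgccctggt

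Counted from the RefSeq start site, with -1 the base just before it, the Lamp1 matches began at -61, -45, -28 and -15. The deposited position of Lamp1 begins at chr8:13159135, within the stretch printed above. By that position the match at -15 lies inside the gene and the match at -28 spans its first base. The Bnip3 match began at -108 and the Atg14 match at -1, so that it runs into the first 5 transcribed bases, which are included above. Ctsl had 1 match, at -236 from a RefSeq start site that lies upstream of the gene as the files list it. The longer form GTCACGTG, which contains CACGTG and was searched on both strands, was in the windows of Lamp1 (at -28) and Atg14 (at -1) and in 2.25% of all windows. The D-box TTATGTAA (0.938% of windows) and the forkhead core GTAAACA (3.65%), each searched on both strands, were in none of the 13 windows. Lamp1 had the most matches and a nearly flat transcript, while Gabarapl1 and Ulk1 had no match and the largest amplitudes. Bnip3, Atg14 and Ctsl had 1 match each and rhythms past the threshold given below (log2 amplitudes 1.15, 0.81 and 0.59). Tfeb, Tfe3 and Sqstm1 had no match and no rhythm past it, while Map1lc3b had no match and a rhythm past it. A link between matches and rhythms was not tested. A match is a description of letters, and binding was not measured here.

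**Figure D1:**
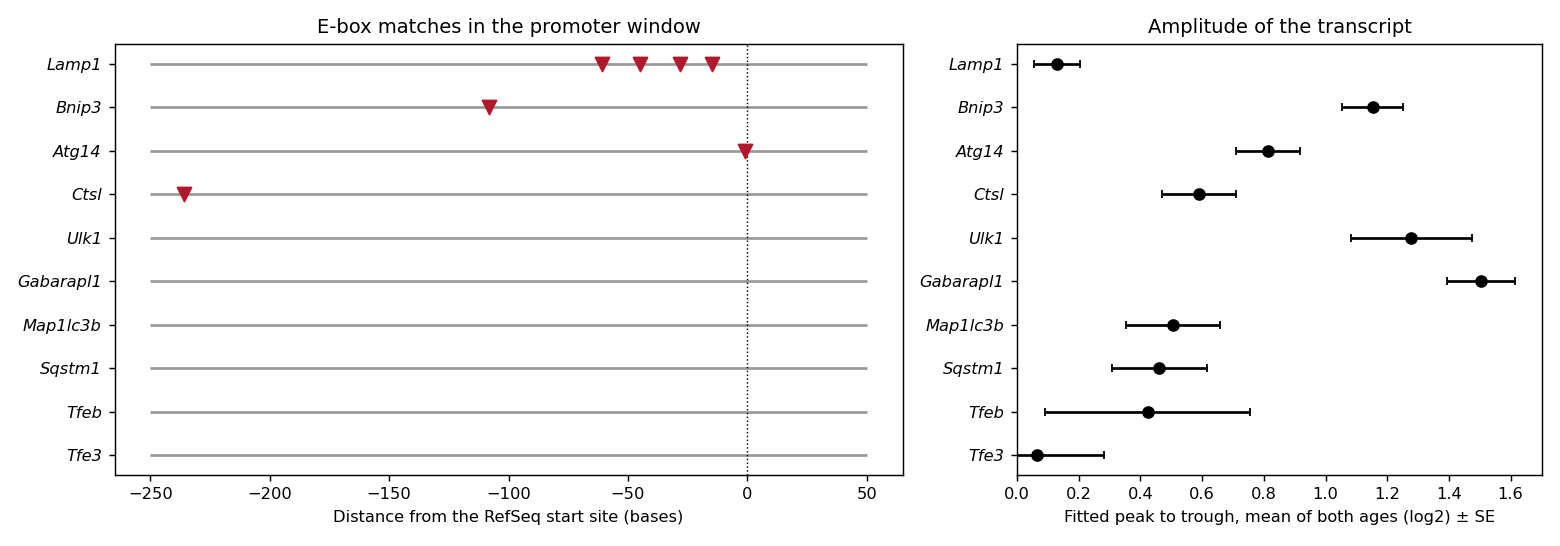
Positions of CACGTG in the promoter windows (left; x axis: bases from the RefSeq start site; triangles: first base of each match) and the daily amplitude of each transcript (right; x axis: fitted log2 peak to trough, mean of both ages, ± SE; 24 libraries). Lamp1 has 4 matches and an amplitude of 0.13, while Gabarapl1 has none and an amplitude of 1.5. Bnip3 has 1 match and an amplitude of 1.15, while Tfe3 has none and an amplitude of 0.06.

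Values are TPM, the abundance of a gene's transcripts per unit of their length, scaled so that the libraries' typical gene is level (scaled TPM). The libraries held an estimated 8.70 to 13.7 M reads of 50 bases (M stands for 1000000; median 10.5 M) and 15989 to 16690 genes above 0. The 8 hepatocyte markers together reached 80350 to 111600 scaled TPM in every library, so the tissue matched its label. In bulk tissue, fewer cells of a type and less RNA per cell cannot be told apart. 2 libraries stood apart: old ZT14 replicate 1 had 3.42% of TPM in mitochondrial genes, against 8.74% to 17.2% in the other 23, and young ZT18 replicate 2 had 3212 scaled TPM of pancreatic acinar markers, against at most 11.1 elsewhere. Results that changed without these 2 libraries are given with both values. Rhythms were tested with a 24 h cosine fitted per age to log2(scaled TPM + 0.5), and age differences with the 12 age and time groups on the same scale, in limma over the 12261 genes whose mean TPM was 1 or more. All 10 genes passed this filter. The threshold throughout is a Benjamini-Hochberg adjusted p under 0.05 over all genes tested.

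The 10 genes spanned a wide range of levels. Over the 12 young libraries, scaled TPM averaged 423 ± 70.2 (SD) for Ctsl, 335 ± 16.5 for Lamp1, 225 ± 93.7 for Gabarapl1, 149.9 ± 32.6 for Sqstm1, 138 ± 50.5 for Bnip3, 34.4 ± 3.88 for Map1lc3b, 11.6 ± 5.64 for Ulk1, 6.83 ± 1.74 for Atg14, 6.27 ± 1.70 for Tfe3 and 2.53 ± 1.0 for Tfeb. The old libraries gave the same order. Neighbours in this order overlapped over the 24 libraries, except Bnip3 (74.8 to 254) and Map1lc3b (15.5 to 48.4), which did not. The regulators and starters of the pathway were thus the low transcripts and the lysosomal proteins the high ones.

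Ulk1 encodes the kinase that starts autophagosome formation (chr5:110784488-110810097, minus strand). Young libraries held 11.7 and 7.52 at ZT2, 13.3 and 20.1 at ZT6, 20.5 and 18.8 at ZT10, 5.95 and 10.1 at ZT14, 5.07 and 6.22 at ZT18, and 7.16 and 13 at ZT22 scaled TPM. Old libraries held 9.89 and 11 at ZT2, 13.9 and 16.3 at ZT6, 13.4 and 17.8 at ZT10, 10.8 and 9.59 at ZT14, 5.92 and 8.75 at ZT18, and 7.14 and 8.91 at ZT22. In each age the 4 libraries of ZT6 and ZT10 were the highest of the 12, and the lowest library was one of ZT18. The fitted peak was at ZT7.41 ± 0.59 h (SE) and the peak to trough difference, averaged over both ages, was 1.28 ± 0.20 on the log2 scale, a 2.42-fold swing (limma adjusted p = 0.000204).

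Atg14 encodes the subunit that directs the class III PI3-kinase complex to the sites where autophagosomes form (chr14:47540894-47568434, minus strand). Young libraries held 7.93 and 6.83 at ZT2, 8.54 and 8.30 at ZT6, 9.48 and 8.74 at ZT10, 5.83 and 5.54 at ZT14, 4.01 and 6.07 at ZT18, and 4.83 and 5.83 at ZT22 scaled TPM. Old libraries held 6.34 and 7.51 at ZT2, 8.33 and 8.63 at ZT6, 9.82 and 10.9 at ZT10, 6.74 and 6.46 at ZT14, 5.59 and 6.08 at ZT18, and 5.79 and 5.18 at ZT22. Its daily course ran beside that of Ulk1: the libraries of ZT6 and ZT10 were again the 4 highest in each age, and those of ZT14, ZT18 and ZT22 were low. The fitted peak was at ZT7.65 ± 0.48 h and the swing 1.76-fold (log2 0.81 ± 0.10, limma adjusted p = 2.23e-05). Over the 12 group means, which share libraries, Ulk1 and Atg14 had the highest correlation of any pair among the 10 genes (Pearson r = 0.903, n = 12).

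Gabarapl1 encodes an ATG8 protein that is joined to the autophagosome membrane (chr6:129533200-129542331, plus strand). Young libraries held 267 and 242 at ZT2, 400.2 and 321 at ZT6, 293 and 299 at ZT10, 152 and 143 at ZT14, 105 and 100.4 at ZT18, and 178 and 206 at ZT22 scaled TPM. Old libraries held 303 and 260.2 at ZT2, 335 and 333 at ZT6, 272 and 233 at ZT10, 154 and 135 at ZT14, 124 and 138 at ZT18, and 238 and 196 at ZT22. Libraries of ZT6 were the highest in both ages, and no library of ZT14 or ZT18 reached the lowest of ZT2, ZT6 or ZT10. The swing was 2.84-fold (log2 1.5 ± 0.11, limma adjusted p = 1.34e-08), with a peak at ZT5.34 ± 0.28 h, and was the largest of the 10 genes. The 3 ATG8 genes outside the 10 gave amplitudes of 0.15 (Gabarapl2 and Map1lc3a) and 0.14 (Gabarap), with limma adjusted p of 0.559, 0.603 and 0.772. Gabarap was about as abundant as Gabarapl1, with a mean of 222 scaled TPM in the young libraries and 206 in the old.

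Map1lc3b encodes LC3B, the ATG8 protein most used to count autophagosomes (chr8:121590361-121598760, plus strand). Young libraries held 38.1 and 36.1 at ZT2, 40.0 and 37.7 at ZT6, 29.8 and 28.1 at ZT10, 36.8 and 34.5 at ZT14, 32.8 and 28.4 at ZT18, and 35.1 and 35.6 at ZT22 scaled TPM. Old libraries held 37.0 and 34.4 at ZT2, 42.0 and 39.6 at ZT6, 48.4 and 28.7 at ZT10, 30.2 and 35.7 at ZT14, 21.1 and 15.5 at ZT18, and 38.2 and 32.1 at ZT22. The young libraries spanned a narrower range than the old, and both old ZT18 libraries lay below the other 22. The rhythm passed the threshold in old (log2 0.84 ± 0.21, peak ZT5.93, limma adjusted p = 0.0397) and not in young (log2 0.25 ± 0.21, adjusted p = 0.708), but the test of the difference between ages did not pass (unadjusted p = 0.087, adjusted p = 1). Without the 2 libraries that stood apart the old rhythm had an adjusted p of 0.0536, and it was lost in 7 of the 24 analyses that left out 1 library: old ZT2 replicate 1 (0.0618), either old ZT6 library (0.0819 and 0.0625), old ZT10 replicate 1 (0.062), either old ZT18 library (0.134 and 0.173) and young ZT6 replicate 2 (0.0502).

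The deposited coverage and FPKM of Map1lc3b did not keep 1 ratio across libraries. In 16 libraries its deposited coverage was 33.7% to 33.9% of what its FPKM and the library's size imply, all within 0.2 points of the median share. In the other 8 libraries the share ran from 17.4% to 50.95%. Both old ZT18 libraries were among these 8, with 50.95% and 31.5%. The 8 libraries held 15.5 to 39.6 scaled TPM of Map1lc3b (median 29.3) and the 16 held 28.4 to 48.4 (median 36.2). The part of this in the low ZT18 values was not tested.

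Sqstm1 encodes p62, the receptor that carries ubiquitin-tagged cargo into autophagosomes and is itself degraded there (chr11:50199366-50210827, minus strand). Young libraries held 186 and 229 at ZT2, 161 and 172 at ZT6, 126 and 131 at ZT10, 131 and 144 at ZT14, 116 and 137 at ZT18, and 120.3 and 145 at ZT22 scaled TPM. Old libraries held 140.4 and 208 at ZT2, 173 and 152 at ZT6, 144 and 154 at ZT10, 107 and 118 at ZT14, 145 and 195 at ZT18, and 105 and 188 at ZT22. Both young ZT2 libraries were the highest of the young, while old libraries of ZT2, ZT18 and ZT22 spread widely. The averaged rhythm did not pass the threshold (log2 0.46 ± 0.15, peak ZT2.96, limma adjusted p = 0.0829). Replicate 2 was above replicate 1 in 11 of the 12 groups.

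Bnip3 encodes a receptor in the outer mitochondrial membrane that takes mitochondria into autophagosomes (chr7:138890836-138909519, minus strand). Young libraries held 74.8 and 92.2 at ZT2, 122 and 109 at ZT6, 165 and 170.3 at ZT10, 254 and 192 at ZT14, 142 and 119.9 at ZT18, and 102 and 107 at ZT22 scaled TPM. Old libraries held 84.5 and 76.3 at ZT2, 115 and 122 at ZT6, 174 and 154 at ZT10, 165 and 180.5 at ZT14, 129 and 152 at ZT18, and 112 and 99.8 at ZT22. It was lowest at ZT2 in both ages. The highest libraries were those of ZT14 in young and those of ZT10 and ZT14, which overlapped, in old. The fitted peak at ZT13.1 ± 0.33 h was the only one after ZT12 among the genes of the 10 with a rhythm past the threshold, and the swing was 2.22-fold (log2 1.15 ± 0.10, limma adjusted p = 1.26e-07). Bnip3l, its close relative, had an amplitude of 0.21 (adjusted p = 0.295).

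Ctsl encodes cathepsin L, a lysosomal protease (chr13:64363214-64370306, minus strand). Young libraries held 500.1 and 414 at ZT2, 539 and 505 at ZT6, 430.2 and 377 at ZT10, 382 and 312 at ZT14, 408 and 326 at ZT18, and 470.2 and 413 at ZT22 scaled TPM. Old libraries held 521 and 412 at ZT2, 617 and 428 at ZT6, 586 and 407 at ZT10, 279 and 349.9 at ZT14, 348 and 355 at ZT18, and 404 and 393 at ZT22. Libraries of ZT6 were the highest of the young, and those of ZT14 and ZT18 were the lowest 4 in old. The averaged rhythm passed the threshold (log2 0.59 ± 0.12, 1.5-fold, peak ZT4.46 ± 0.78 h, limma adjusted p = 0.00344). Replicate 1 was above replicate 2 in 10 of the 12 groups, and the old amplitude was 1.05 over the replicate 1 libraries and 0.30 over the replicate 2 libraries.

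Lamp1 (chr8:13159135-13175338, plus strand) was the steadiest of the 10 genes. Young libraries held 357 and 344 at ZT2, 317 and 339 at ZT6, 361 and 355 at ZT10, 322 and 334 at ZT14, 331 and 334 at ZT18, and 310.3 and 321 at ZT22 scaled TPM. Old libraries held 364 and 332 at ZT2, 341 and 352 at ZT6, 328 and 383 at ZT10, 297 and 356 at ZT14, 283 and 354 at ZT18, and 304 and 338 at ZT22. The coefficient of variation over all times was 4.91% in young and 8.71% in old. No time of day stood out, and the fitted amplitude was 0.13 ± 0.07 on the log2 scale (limma adjusted p = 0.403).

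Tfeb (chr17:47737030-47792419, plus strand) and Tfe3 (chrX:7762560-7775202, plus strand), the transcription factors, gave no rhythm past the threshold. Tfeb ranged from 1.03 to 4.36 scaled TPM in young (median 2.62) and from 0.861 to 5.42 in old (median 2.19). Its libraries held an estimated 12.6 to 110 reads of the gene (median 38.3), the fewest of the 10 genes. Their deposited coverage and FPKM also kept no fixed ratio: coverage was 1.46% to 4.55% of what FPKM implies for Tfeb and 22.3% to 46.0% for Tfe3, and the effect of this on their levels was not tested. Tfe3 ranged from 3.30 to 8.98 in young (median 6.29) and from 3.54 to 8.37 in old (median 6.40). The fitted log2 amplitudes were 0.42 ± 0.33 for Tfeb (limma adjusted p = 0.604) and 0.06 ± 0.22 for Tfe3 (adjusted p = 0.972). Transcription factor activity and cell localization were not measured.

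**Figure D2:**
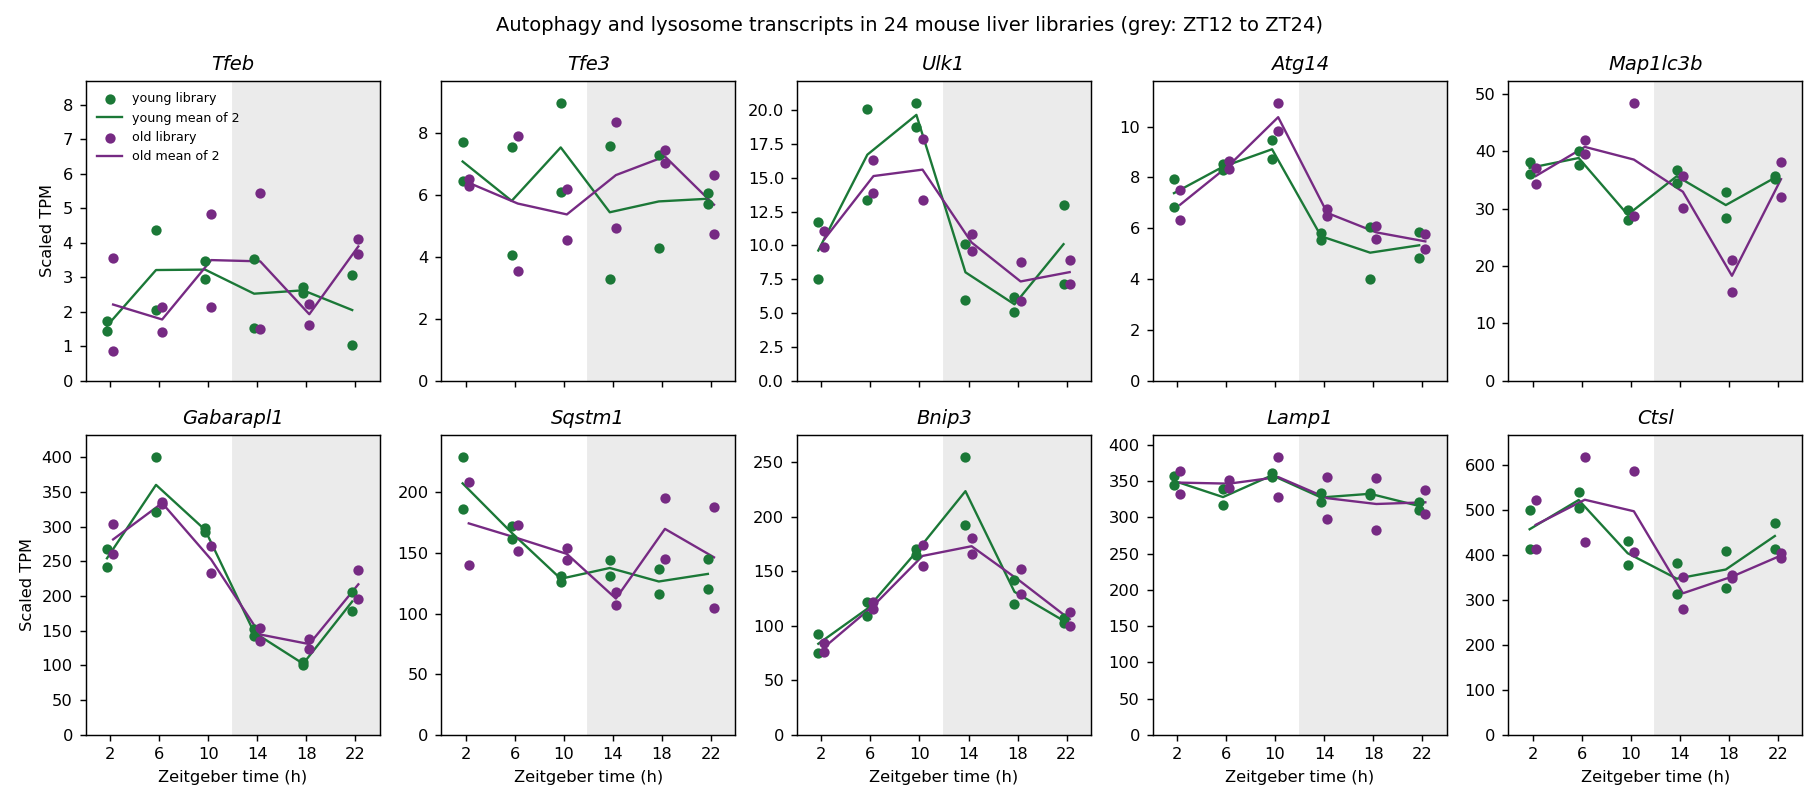
Scaled TPM (y axis, from 0) of the 10 genes at each zeitgeber time (x axis, hours); points are single libraries, lines join the mean of 2, green is young and purple is old, and grey marks ZT12 to ZT24. Gabarapl1 is highest at ZT6 and Bnip3 at ZT14 in both ages, Ulk1 and Atg14 are highest at ZT10, and Lamp1 is nearly level.

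Rhythms averaged over both ages thus passed the threshold for 6 of the 10 genes (Gabarapl1, Bnip3, Atg14, Ulk1, Ctsl and Map1lc3b), beside 23.9% of all genes tested. In young it was 4 of 10 (Ulk1, Atg14, Gabarapl1 and Bnip3), beside 10.7%, and in old 6 of 10, beside 8.96%. These 4 passed in both ages, beside 5.46% of all genes. The median amplitude of the 10 genes was 0.55 on the log2 scale, and that of all genes tested 0.36. The old calls for Ulk1, Map1lc3b and Ctsl were close to the threshold (limma adjusted p = 0.0342, 0.0397 and 0.0368). None of the 3 passed without the 2 libraries that stood apart (0.0561, 0.0536 and 0.0726). Over the 24 analyses that each left out 1 library, the old call remained in 18 for Ulk1 and in 18 for Ctsl. The averaged call for Map1lc3b (limma adjusted p = 0.0483) was likewise lost without them (0.1), and it remained in 6 of the 24 analyses that each left out 1 library. Gabarapl1, Bnip3 and Atg14 passed in young, in old and on average under every alternative run.

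Amplitudes were compared between ages directly. The difference in rhythm passed the threshold for 0 of the 10 genes and for 0% of all genes (limma, adjusted p), with 430 genes (3.51%) at an unadjusted p under 0.05 and none of the 10 among them. The log2 amplitude of Gabarapl1 was 1.67 ± 0.16 in young and 1.36 ± 0.16 in old, a difference of -0.31 with a 95% interval of -0.77 to 0.15. Bnip3 gave 1.26 ± 0.14 and 1.05 ± 0.14 (difference -0.21, interval -0.62 to 0.20), Ulk1 gave 1.45 ± 0.28 and 1.11 ± 0.28 (difference -0.34, interval -1.16 to 0.48), and Atg14 gave 0.86 ± 0.15 and 0.79 ± 0.15 (difference -0.07, interval -0.50 to 0.36). Each of these intervals leaves room for a loss of amplitude in old liver, for none and for a gain. The fitted amplitude was lower in old for 6 of the 10 genes, these included. It was higher for Map1lc3b (difference 0.59, interval -0.04 to 1.22), Ctsl (0.14), Lamp1 (0.08) and Tfe3 (0.04). The median amplitude of the 10 genes was 0.62 in young and 0.73 in old. Peak times differed between ages by 0.07 h for Bnip3 (interval -1.31 to 1.45 h) and by -1.0 h for Gabarapl1, the old peak being the earlier (interval -2.17 to 0.17 h). For Ulk1 the difference was 0.69 h (-1.80 to 3.19 h) and for Atg14 1.40 h (-0.58 to 3.38 h). Within replicate 1 and within replicate 2, Gabarapl1 gave amplitudes of 1.80 and 1.55 in young and of 1.42 and 1.31 in old. Bnip3 gave 1.5 and 1.02 in young and 0.95 and 1.15 in old, so its lower old amplitude was seen in the replicate 1 libraries alone. The same held for Atg14, with 1.14 and 0.578 in young and 0.731 and 0.855 in old. Ulk1 gave 1.7 and 1.23 in young and 1.17 and 1.06 in old.

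**Figure D3:**
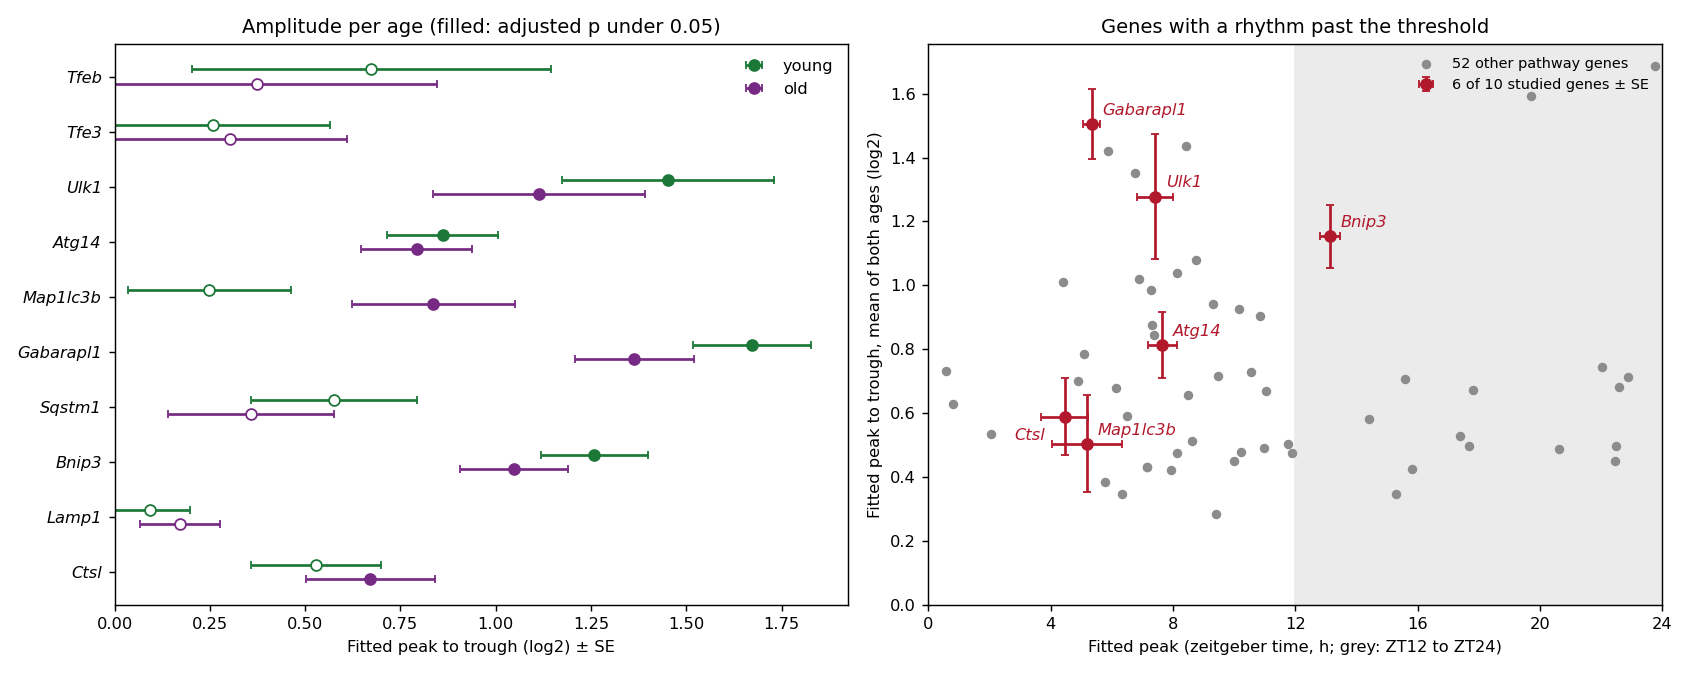
Left: fitted log2 peak to trough (x axis) with its SE in young (green) and old (purple) for each gene, filled where the adjusted p was under 0.05; bars are cut off at 0. Right: fitted peak time (x axis, ZT in hours, grey from ZT12) against amplitude (y axis) for the 6 of the 10 genes (red, ± SE) and the 52 other pathway genes (grey) whose averaged rhythm passed; Bnip3 is the only red point after ZT12.

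Age did not shift the daily mean of any of the 10 genes past the threshold. The age difference over the day passed for 0 of 10 (limma, with 0 of 10 at an unadjusted p under 0.05), beside 1.64% of all genes (201, of which 1.14% were higher and 0.498% lower in old) and 11.6% at an unadjusted p under 0.05. The median log2 difference, old minus young, was 0.01 for the 10 genes and -0.01 for all genes. Lamp1 had the narrowest interval, with a difference of 0.00 and a 95% interval of -0.13 to 0.12. Gabarapl1 differed by 0.05 (-0.09 to 0.19), Bnip3 by -0.05 (-0.19 to 0.09), Atg14 by 0.09 (-0.06 to 0.25) and Map1lc3b by -0.08 (-0.26 to 0.09). For Ctsl the difference was -0.01 (-0.20 to 0.18), for Sqstm1 0.02 (-0.20 to 0.23) and for Ulk1 0.02 (-0.25 to 0.29). The 2 transcription factors were measured least closely, with 0.00 (-0.36 to 0.35) for Tfe3 and 0.06 (-0.45 to 0.57) for Tfeb, so moderate changes of either lie within the interval. The direction of these small differences depended on the scaling: with the deposited TPM unscaled, where all genes shifted by 0.09, the values of Tfe3, Map1lc3b, Bnip3, Ctsl and Lamp1 changed sign.

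Ages were also compared at each time, 2 libraries against 2. No gene of the 10 passed at any time by limma, while 65 genes passed at ZT10 (0.449% of all genes higher and 0.0816% lower in old), 5 at ZT14 (0.0326% and 0.00816%), 3 at ZT18 (0.0163% and 0.00816%), 1 at ZT22 (0.00816% and 0%) and 0 at ZT2 and ZT6 (0% and 0%). In all, 3 single values of the 10 genes had an unadjusted p under 0.05, which was the case for 4% of all genes at ZT2, 4.04% at ZT6, 7.92% at ZT10, 7.87% at ZT14, 4.63% at ZT18 and 3.04% at ZT22. Map1lc3b was 0.74 ± 0.20 (SE) lower on the log2 scale in old at ZT18 (log2 difference -0.74, limma adjusted p = 0.624). Gabarapl1 was higher by 0.35 ± 0.16 at ZT18 (adjusted p = 1), with old libraries at 124 and 138 and young at 105 and 100.4. Bnip3 differed by -0.36 ± 0.16 at ZT14 (adjusted p = 0.621), with old at 165 and 180.5 and young at 254 and 192. With unscaled TPM the Bnip3 value at ZT14 was 0.03, and the old ZT14 libraries are those with the low mitochondrial shares (3.42% and 8.74%).

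Libraries of the 2 ages did not overlap for 0 of the 10 genes at ZT2 (beside 34.1% of all genes), 1 at ZT6 (Lamp1, 27.3%), 4 at ZT10 (Ulk1, Gabarapl1, Sqstm1 and Atg14, 35.9%), 3 at ZT14 (Sqstm1, Bnip3 and Atg14, 32.2%), 4 at ZT18 (Tfeb, Map1lc3b, Gabarapl1 and Sqstm1, 27.8%) and 2 at ZT22 (Tfeb and Ctsl, 22.3%). The variation of the age difference over the 6 times passed for 0 of the 10 genes and for 0.0163% of all genes (2 genes, with 442, or 3.6%, at an unadjusted p under 0.05). Map1lc3b was the gene of the 10 with the smallest unadjusted p there (0.037, limma adjusted p = 1).

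**Figure D4:**
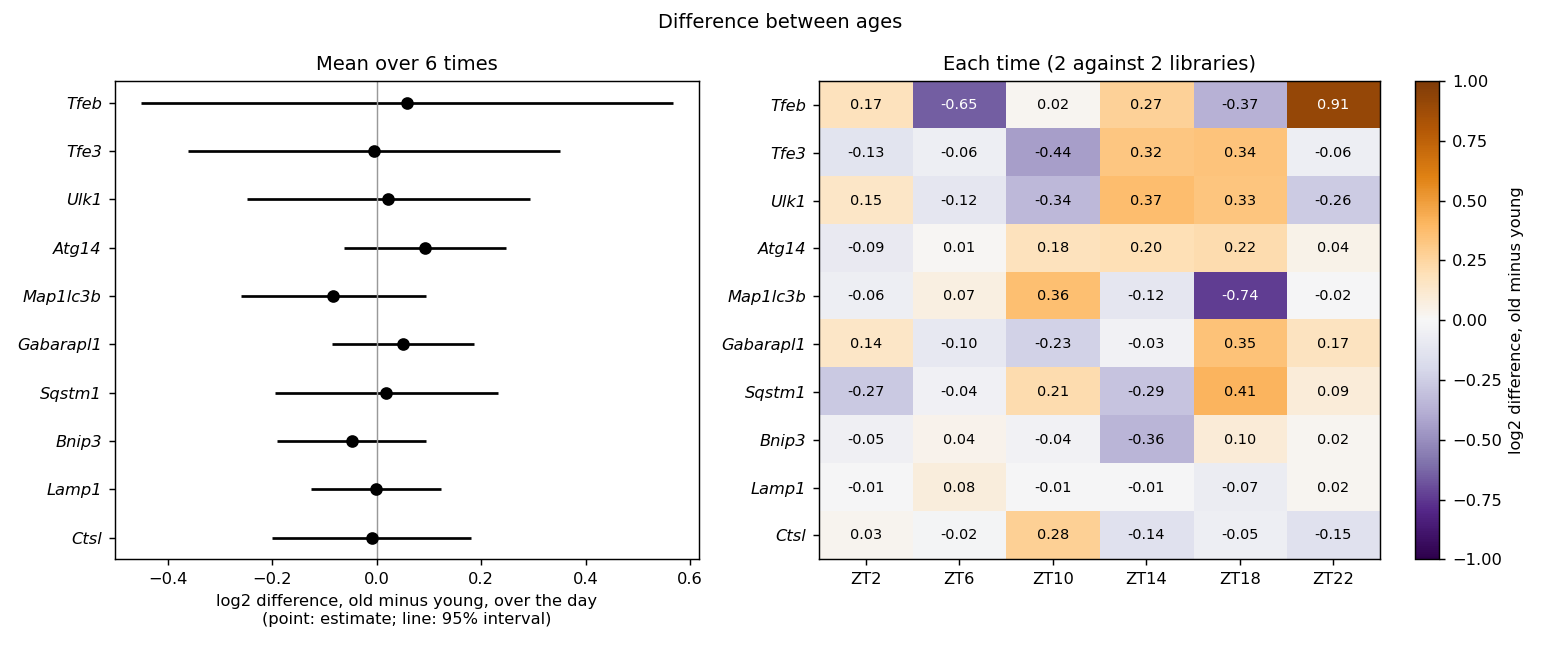
Left: log2 difference, old minus young, over the 6 times (x axis) with its 95% interval for each gene (24 libraries). Right: the same difference at each time (2 against 2 libraries; colour and number, purple lower and orange higher in old). Every interval on the left includes 0, and Map1lc3b at ZT18 reads -0.74.

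The other genes of autophagy and the lysosome were counted in 11 lists with 182 genes outside the 10, of which 173 were tested. Their averaged rhythm passed the threshold in 52 of 173 (30.1%), beside 23.9% of all genes. Of the 52 peaks, 37 fell before ZT12 and 15 after it. The split of peaks over all genes was not counted, so this split cannot be called particular to these lists. In young 23 passed (13.3%, beside 10.7%) and in old 12 (6.94%, beside 8.96%), and the difference between ages passed for 0. The median amplitude was 0.33, against 0.36 for all genes tested. Without the 2 libraries that stood apart the averaged count was 46. With an F test over the 6 times in place of the cosine it was 27 of 173 (15.6%), beside 15.3% of all genes, so the higher share did not hold under that test.

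Among genes that control TFEB, TFE3 and their relatives, of 17 tested genes of MiT/TFE factors and their control, 8 passed. Flcn, which encodes the folliculin GTPase activator of the lysosomal nutrient switch, swung 2.55-fold with a peak at ZT6.76 (log2 1.35, limma adjusted p = 1.60e-05), and its partner Fnip1 gave 0.99 at ZT7.29. Zkscan3, a repressor of autophagy genes, gave 0.63 at ZT0.79. Of 22 tested genes of nutrient and stress control, 6 passed, with a median amplitude of 0.32 over the 22. Ddit4, a stress-induced inhibitor of mTORC1, had an amplitude of 1.59 and a peak at ZT19.7 (adjusted p = 5.16e-06), and Cebpb and Sesn1 gave 0.93 at ZT10.2 and 0.53 at ZT2.06. The peak of Flcn thus lay within 1 h of those of Ulk1 and Atg14, while that of Ddit4 lay in the later part of the cycle.

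Among genes that build and load the autophagosome, 3 of 11 tested genes of the ULK1 and PI3K complexes passed, and they were Uvrag (0.49, peak ZT11), Atg101 (0.73, ZT0.57) and Pik3c3 (0.70, ZT4.89). Of 20 genes of ATG8 conjugation and membrane supply 8 passed, with Atg16l2 the first by p (log2 1.69, peak ZT23.8, limma adjusted p = 0.00012), followed by Atg3 (0.50, ZT17.7) and Atg4a (0.45, ZT22.5). Of 13 other autophagy receptors 5 passed. Retreg1, a receptor for the endoplasmic reticulum, gave 1.01 at ZT4.42, Calcoco1, also such a receptor, gave 1.42 at ZT5.89, and Optn, a receptor for ubiquitin-tagged mitochondria, gave 0.66 at ZT8.49. None of these 3 peaked near Bnip3. Of 14 genes of autophagosome fusion 3 passed, namely Vps11 (0.59, ZT6.49), Ykt6 (0.35, ZT15.3) and Vps41 (0.35, ZT6.34), and the last 2 were lost without the 2 libraries that stood apart (limma adjusted p = 0.0551 and 0.0772). With the F test over 6 times all 3 were lost (0.13, 0.127 and 0.224), and Vps11 was also lost without young ZT18 replicate 1 (0.0606). That test also lost Pik3c3 (0.0741), Atg3 (0.0785) and Atg4a (0.0989), and unscaled TPM lost Atg4a (amplitude 0.28, adjusted p = 0.111).

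In the lysosome, 1 of 12 other proteases (Lgmn, 0.48, peak ZT8.13), 5 of 17 other membrane proteins, 8 of 28 other hydrolases and 5 of 16 V-ATPase subunits passed for an averaged rhythm. Npc1, the cholesterol exporter of the lysosome, had the largest amplitude among the membrane proteins (2.70-fold, log2 1.43, peak ZT8.44, limma adjusted p = 0.0028), beside Slc17a5 (0.51, ZT8.62) and Clcn7 (0.94, ZT9.32). Lipa, the lysosomal acid lipase, gave 0.68 with a peak at ZT22.6, and its adjusted p was 0.0555 with unscaled TPM. Arsa, which removes sulfate groups from sulfatides, gave 1.04 at ZT8.15. For the proton pump, Atp6v1d gave 0.71 at ZT15.6, Atp6v1e1 0.50 at ZT11.8 and Atp6v1g1 0.49 at ZT20.6. The F test over 6 times lost Clcn7 (adjusted p = 0.152) and Atp6v1g1 (0.15). Lamp2, the relative of Lamp1, gave 0.20 (adjusted p = 0.197).

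Of the 173 genes, 4 were higher in old over the day and 0 were lower (2.31% and 0%, beside 1.14% and 0.498% of all genes), and all 4 act in the lysosome. Galc, which cleaves galactosylceramide, averaged 2.02 ± 0.32 (SD, n = 12) scaled TPM in young and 3.16 ± 0.56 in old. Lgmn, a protease that cuts after asparagine, averaged 36.2 ± 5.34 and 46.4 ± 11.8. Laptm5, a lysosomal membrane protein of blood cells, averaged 6.58 ± 1.42 and 9.67 ± 3.81. Pla2g15, a lysosomal phospholipase, averaged 6.63 ± 0.83 and 8.80 ± 2.02. The ranges of the ages overlapped for each of the 4. For Galc this rested on old ZT14 replicate 1 alone (1.995), 1 of the 2 libraries that stood apart. The next lowest old library held 2.563, and the highest young library 2.459. The old mean was higher at all 6 times for Galc, Lgmn and Laptm5 and at 4 of 6 for Pla2g15.

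The log2 differences were 0.53 ± 0.10 (SE) for Galc (limma adjusted p = 0.00939), 0.33 ± 0.07 for Lgmn (0.0316), 0.48 ± 0.11 for Laptm5 (0.0344) and 0.36 ± 0.08 for Pla2g15 (0.0262). Galc passed in all 24 analyses that left out 1 library, Lgmn in 9, Laptm5 in 6 and Pla2g15 in 13. Without the 2 libraries that stood apart, Galc (adjusted p = 0.00238) and Laptm5 (0.0334) passed and Lgmn (0.0583) and Pla2g15 (0.0694) did not, while the log2 differences of these last 2 were 0.33 and 0.36 as before. Over replicate 1 and replicate 2 libraries apart, the differences were 0.53 and 0.53 for Galc, 0.21 and 0.45 for Lgmn, 0.23 and 0.73 for Laptm5 and 0.29 and 0.42 for Pla2g15. In the lists with no call, the smallest p belonged to Cebpb (0.36, adjusted p = 0.148), Tecpr1 (0.33, 0.322), Atg4a (-0.17, 0.381), Fundc1 (-0.20, 0.469), Tfec (-0.25, 0.513), Gabarapl2 (-0.16, 0.535), Atp6v0c (-0.12, 0.608) and Ambra1 (0.16, 0.635).

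Macrophages are rich in lysosomes, and their markers are given beside these 4 genes. Summed over 13 Kupffer cell markers, libraries held 490.9 to 654 scaled TPM in young (median 601) and 480.5 to 1264 in old (median 625). Of the 13, 11 were higher in old and 1 passed the threshold, beside 1.14% of all genes that passed as higher in old. It was Marco, with a mean of 6.24 in young and 28.5 in old, while Timd4 and Slc40a1 were lower in old. The 8 markers of monocyte-derived macrophages summed to 114 to 235 in young (median 157) and 159 to 348 in old (median 199), and of the 4 tested all were higher in old and 0 passed. Neutrophil markers summed to 3.48 to 22.5 in young (median 9.0) and 2.63 to 138 in old (median 27.8), with Ly6g at 0 in every library, and of the 3 tested all were higher in old and 2 passed. Plasma cell markers summed to 11.4 to 57.6 in young (median 30.5) and 116 to 641 in old (median 160.4), and all 3 tested passed, higher in old. Among other cell types, 0 of 5 tested markers of sinusoidal endothelium, 2 of 5 of stellate cells and 6 of 8 of hepatocytes had a log2 difference above 0. That of the hepatocyte marker Cps1 was 0.005. Median sums in young and old were 136 and 127 for endothelium, 184.5 and 203 for stellate cells and 101600 and 90280 for hepatocytes. In these lists 0 passed in either direction. The 1 cholangiocyte marker tested, Sox9, passed as higher in old (mean 1.56 in young and 2.29 in old). The untested Krt19 (0.85 and 0.80) and Epcam (0.79 and 0.68) had lower means in old, and Krt7 was near 0 (0.04 and 0.07). The highest Kupffer, macrophage and neutrophil sums were all in old ZT10 replicate 2. Their part in the higher lysosomal transcripts was not tested.

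**Figure D5:**
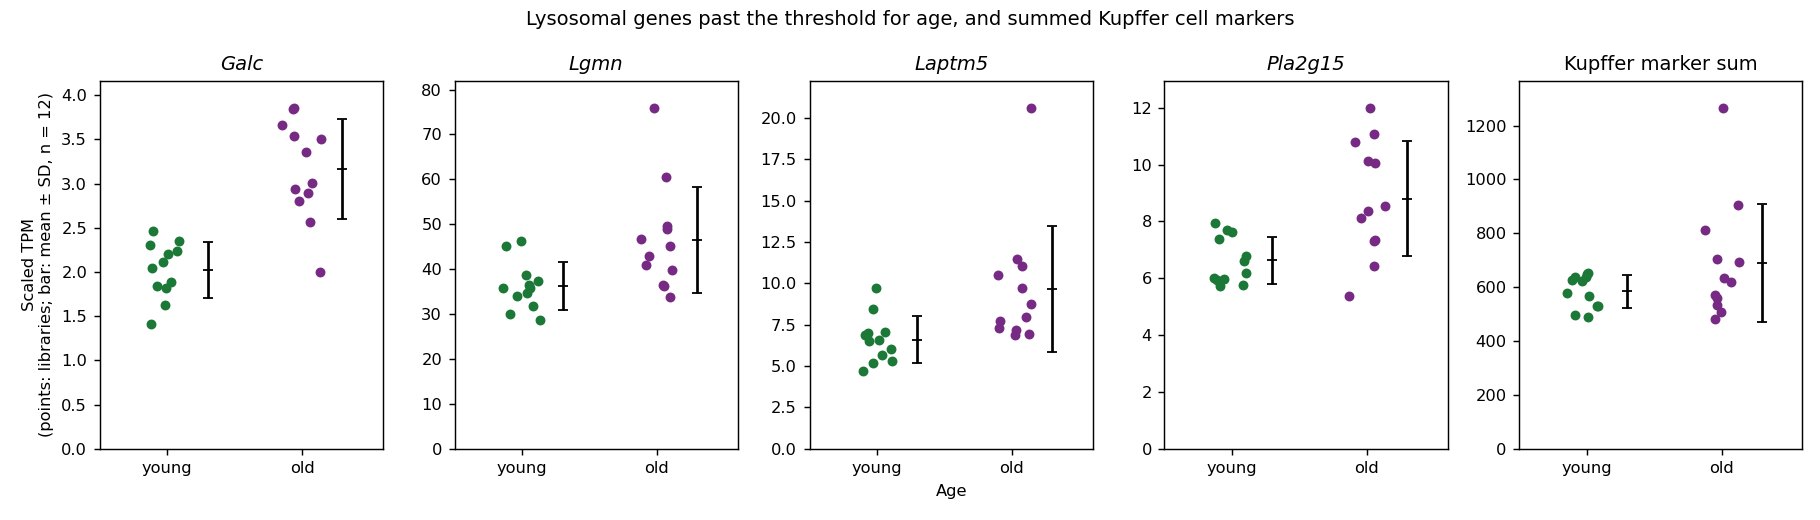
Scaled TPM (y axis, from 0) of the 4 lysosomal genes past the threshold for age and the sum of 13 Kupffer cell markers, in young (green) and old (purple) libraries; each point is a library and the bar is the mean ± SD (n = 12 per age). The ages overlap in all 5 panels, for Galc through old ZT14 replicate 1 alone. For Laptm5 and for the marker sum, 1 old library, ZT10 replicate 2 in both, lies far above the rest.

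For the 6 genes with an averaged rhythm past the threshold, the transcripts whose 12 group means ran most alike were found over all genes tested (Pearson r, n = 12 means that share libraries, as a description). Ulk1 ran most like Pabpc1 (0.972) and Pik3ap1 (0.971), and Atg14 like Zfand3 (0.948) and Pabpc1 (0.946), so that Pabpc1 was near both. Gabarapl1 ran most like Inca1 (0.967) and Agxt (0.963), and Bnip3 like Cyp2a5 (0.948) and Nrg4 (0.945). Ctsl ran most like Cir1 (0.964) and Serpinb9 (0.944), and Map1lc3b like Flt3l (0.925) and Rab35 (0.921). Among the 10 genes, Gabarapl1 was near Ctsl (0.841) and Ulk1 (0.836), and the lowest value was that of Bnip3 and Sqstm1 (-0.615).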

How the data were processed

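Poly(A) RNA from frozen liver was sequenced strand-specifically from 1 end over 50 bases, per the labels' protocols. Reads were aligned with HISAT2 to GRCm38 and quantified with StringTie, per the submitters' processing notes, with versions not given in the sources used here. The deposited TPM values are the authors' StringTie levels per transcript length, which sum to 1000000 per library. The deposited FPKM values are the authors' depth-scaled form of the same estimate, used as an alternative. The deposited coverage values, the authors' mean read coverage per base, were used with FPKM to estimate depth. The files give no read counts, so counting error is unknown for single values and reads are estimates.

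TPM were divided by a factor per library, the median ratio to the geometric mean over the 13270 genes that no library listed at 0. Genes of mean TPM 1 or more were fitted as log2(scaled TPM + 0.5) in R 4.3.3 with limma 3.58.1 (trended empirical Bayes), so fold changes of low genes are understated. The group model had 12 residual degrees of freedom and the cosine model 18, and amplitude is the fitted log2 peak minus trough. Tables were read with pandas 2.3.3 and numpy 2.4.6 under Python 3.11.15 and plots drawn in matplotlib 3.10.9. The steps were tested on simulated data.

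The 10 genes and the lists were chosen with earlier results of these data known. All 10 genes were tested in every comparison, but for single times, variation over times and peak differences the text gives values for some only. From each other list up to 3 genes with the smallest p past the threshold are named, or 1 if none passed, and relatives named beside a gene (Gabarap, Gabarapl2, Map1lc3a, Bnip3l, Lamp2) were added for context after their values were seen. A single gene that the rule would name is not reported here. The gene names of 248 list entries stood in the files, and 6 more were found through GENCODE M21 symbols. Alternatives were unscaled TPM and FPKM, quantile normalization, pseudocounts of 0.1 and 1, no filter, a filter at 5 TPM, a replicate block, an F test over the 6 times in place of the cosine, each library left out, and, chosen after seeing the data, the 2 libraries that stood apart left out together. RefSeq promoter windows of all 10 genes were matched by symbol. Protein sequences were not used here.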

Additional observations from a re-analysis of the deposited data

How the results depend on the processing

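The 0 calls for age among the 10 genes, over the day, at each time and in their variation over times, and the 0 calls for a rhythm difference held under each alternative and each left-out library, and the 4 young rhythm calls ranged from 4 to 5. Rhythm calls in old fell from 6 to 3 with no filter and to 3 without the 2 libraries that stood apart, and ranged from 3 to 6 over left-out libraries. The cause was not tested. Signs of the uncalled age differences depended on scaling. With unscaled TPM they were 0.0951 for Tfe3, 0.0265 for Map1lc3b, 0.063 for Bnip3, 0.101 for Ctsl and 0.11 for Lamp1, and 0.0325 for Bnip3 at ZT14, while all genes shifted by 0.0902. With FPKM they were 0.0546 for Tfe3, 0.021 for Bnip3, 0.0591 for Ctsl and 0.0678 for Lamp1. With quantile normalization they were 0.00926 for Bnip3, 0.0198 for Ctsl and 0.0565 for Lamp1. Without the 2 libraries they were -0.0799 for Tfeb, 0.113 for Tfe3 and 0.0216 for Lamp1. Over left-out libraries, age differences crossed 0 for Tfeb (-0.0734 to 0.189), Tfe3 (-0.096 to 0.0861), Ulk1 (-0.0454 to 0.0909), Sqstm1 (-0.0517 to 0.0883), Ctsl (-0.0536 to 0.0341) and Lamp1 (-0.0281 to 0.0262).

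Single rhythm calls near the threshold moved. In old, adjusted p by limma was 0.0673 for Ulk1 with unscaled TPM, and with no filter it was 0.0571 for Ulk1, 0.0601 for Map1lc3b and 0.0528 for Ctsl. With the F test over 6 times it was 0.156 for Ulk1 and 0.212 for Ctsl. The averaged Map1lc3b rhythm had 0.0738 with no filter. In young, Ctsl passed with unscaled TPM (0.015), FPKM (0.0363) and quantile normalization (0.00954). For age, Laptm5 had 0.0502 with no filter.

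Counts moved by over 1.5 times as follows. Calls for age over the day in all genes (201) were 116 with a filter at 5 TPM. Calls among the other pathway genes (4) were 2 without the 2 libraries and 1 to 5 over left-out libraries. Calls at single times (74) were 113 with no filter and 15 to 118 over left-out libraries. Calls for variation over times (2) were 1 with quantile normalization, 1 with a pseudocount of 0.1, 17 with no filter, 0 at 5 TPM and 0 to 36 over left-out libraries. The F test gave 841 young, 693 old and 1881 averaged rhythms in all genes, against 1316, 1098 and 2935, and 10, 5 and 27 in the other pathway genes, against 23, 12 and 52. Young rhythms of the other pathway genes ranged from 11 to 30 over left-out libraries. Rhythm differences in all genes (0) were 2 with quantile normalization, 1 at 5 TPM, 4 without the 2 libraries, 2 with the F test and 0 to 3 over left-out libraries.

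The labels do not say that equal replicate numbers pair libraries, and deviations from group means of same-numbered libraries correlated over 0.1 in 52 of 66 pairs of groups but not in all (lowest -0.158, median 0.186, highest 0.451). A shared effect of the replicate number is therefore possible, and its absence from some pairs does not exclude it. The main fit did not treat the numbers as pairs, so its calls and non-calls leave such an effect out. With a replicate block, calls for age over the day in all genes were 353, calls at single times 156 and old rhythms of the other pathway genes 20, and Ctsl in young (adjusted p = 0.0383) and Sqstm1 on average (0.0356) passed. Groups of 2 limit every comparison at a single time, and Tfeb rests on few reads.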
